A study of Mus musculus with 24 samples.

Results

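Livers of mice fed either of 2 diets rich in unsaturated fat, Trans or Cis, were compared as 1 side with livers of mice fed a diet rich in saturated fat. The groups were taken from the diet given in the title of each sample, which put 16 livers on the unsaturated side (8 Trans and 8 Cis) and 8 on the Saturated side, so that the comparison used 24 of the 24 livers of the series. All mice were C57BL/6J males, pure-bred and 4 to 6 months old, and ate their diet for 7 weeks. In each diet, a modified TestDiet 58V8, fat supplied 45% of the energy. The fat came from partially hydrogenated soy oil in the Trans diet, from canola with palm olein oil in the Cis diet and from cocoa butter in the Saturated diet. A larger share of fatty acids with a double bond, whatever its geometry, is thus common to Trans and Cis, but each diet also had its own fat source. Double bonds were not absent from the Saturated diet. The paper states that its cis-unsaturated fatty acids were equivalent in amount to those of the Trans diet. More double bonds, less saturated fat and the absence of cocoa butter therefore cannot be told apart in this comparison. There was no group on a low fat diet.

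The liver both makes cholesterol and takes it up from lipoproteins. When sterols in the endoplasmic reticulum are scarce, the escort protein SCAP carries the transcription factor SREBP2 to the Golgi apparatus, where it is cut and released to activate the genes of cholesterol synthesis. When sterols are plentiful, the INSIG proteins hold the complex back. The related factor SREBP1 acts mainly on genes of fatty acid synthesis. Fatty acids also bind nuclear receptors such as PPARα, which activates genes of fatty acid oxidation, and unsaturated fatty acids need auxiliary enzymes to be oxidized, because their double bonds stand in the way of the standard cycle.

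RNA of each liver was hybridized to its own Affymetrix Mouse Gene 1.1 ST array, and the deposited values were on the log2 scale after RMA normalization. The arrays held 35556 probe sets, of which 21218 are listed with 1 gene, for 18820 genes. Array medians lay between 2.94 and 3.06, and each array had a median r of 0.975 to 0.986 against the rest, lowest in Trans replicate 4. All 11 hepatocyte markers measured had a mean signal over 20. Signals below are these values brought back to the linear scale, and they compare livers for 1 gene, not genes with each other. A log2 difference is the mean of Trans and Cis minus the mean of Saturated, with its standard error. A probe set was called at an adjusted p under 0.05 (limma, Benjamini-Hochberg adjustment over all probe sets), and a called probe set counted as moved alike when Trans and Cis differed from Saturated in the same direction and the smaller difference was at least 0.5 of the larger. Over bulk tissue, fewer cells of a type and less RNA per cell cannot be told apart.

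Over all 24 livers no probe set passed the test. Of 35556 probe sets tested, 0 were called higher in the unsaturated diets (0%) and 0 were called lower (0%), so 0 moved alike by the rule, and the smallest adjusted p was 0.131. At an unadjusted p under 0.05, 1212 probe sets were higher (3.41%) and 1264 were lower (3.55%), 2476 in all, where 1778 would be reached by chance at this threshold. When the comparison was repeated without Saturated replicate 2, over 23 livers, 4 probe sets were called higher (0.0112%) and 16 were called lower (0.045%), and 18 of these 20 moved alike in both diets (0.0506%). At an unadjusted p under 0.05 the numbers were 1307 higher (3.68%) and 1318 lower (3.71%). The 14 genes behind the calls that are given by their leading probe set were Krt23, Tppp, Paqr7 and Hsd17b11, which rose, and Fabp5, Sqle, Idi1, Lss, Cyp51, Pmvk, Msmo1, Fdft1, Tm7sf2 and Zfand4, which fell. In that list 8 genes encode enzymes of cholesterol synthesis.

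The choice to leave out Saturated replicate 2 decides these calls. Nothing in the labels sets this liver apart, and the median correlation of its array with the others, 0.984, lay within the range of the other arrays. Its signals for the called probe sets lay within the range of the 16 unsaturated livers in 20 of 20 cases, and outside the range of the other 7 Saturated livers in 19 of 20. For instance its signal of Fabp5 was 12.1, against 76.1 to 184 in the other Saturated livers, and its signal of Krt23 was 27.4, against 4.67 to 11.9. Leaving it out removes a Saturated liver that lay on the unsaturated side in these genes, which by construction enlarges the differences, so the calls over 23 livers are not independent of that choice. The called probe sets were picked without this liver, which favours the counts of 20 of 20 and 19 of 20. Those counts are therefore no independent evidence about its diet. Whether this mouse ate the diet its label gives could not be checked here, which bears on every value over 24 livers, and the label was kept. Below, "rose" and "fell" refer to the test over 23 livers, with the value over 24 beside them, and values of genes that did not pass the test are over 24 livers unless 23 are named.

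**Figure D1:**
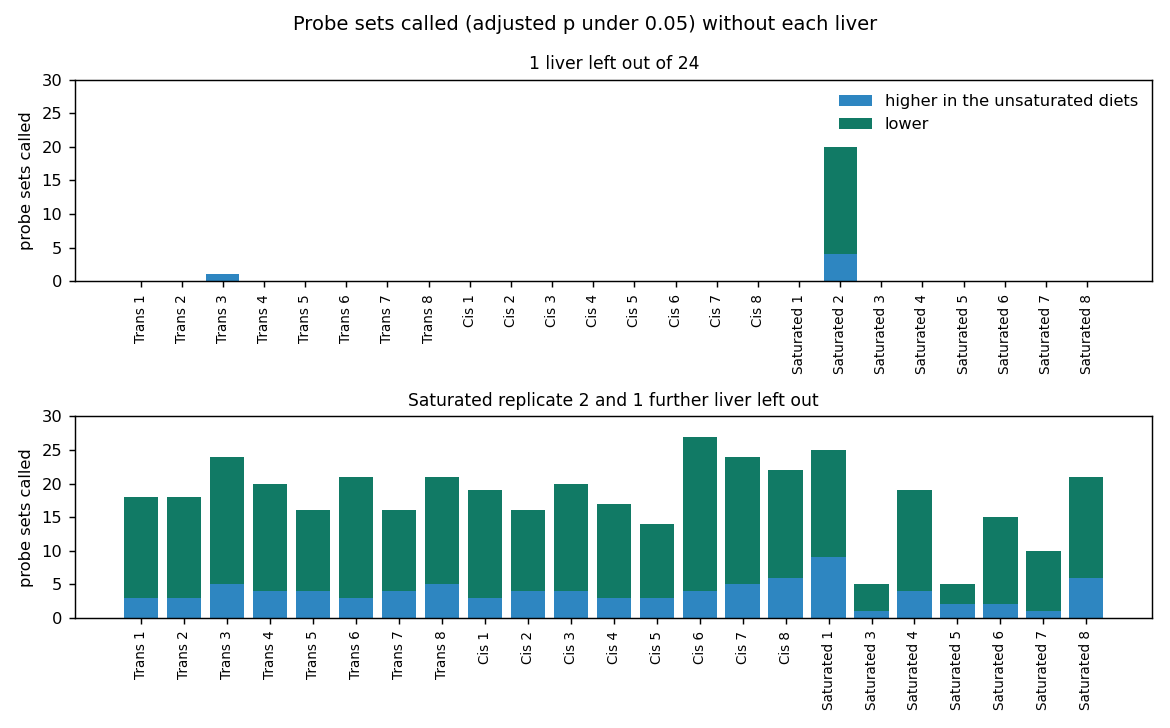
Number of probe sets called (vertical axis) when each liver on the horizontal axis was left out, with calls higher in the unsaturated diets in blue and calls lower in green. In the upper panel 1 liver was left out of 24, and 20 probe sets were called without Saturated replicate 2 and 1 without Trans replicate 3; in the lower panel 1 further liver was left out of the remaining 23, and the number of calls fell to 5 without Saturated replicate 3 or 5.

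When each of the 24 livers was left out in turn, 22 of the 24 fits called no probe set. Without Trans replicate 3 only Paqr7 was called, and without Saturated replicate 2 there were 20 calls. The calls over 23 livers also leaned on single Saturated livers. With Saturated replicate 2 already out, leaving out Saturated replicate 3 brought the calls to 1 higher and 4 lower, leaving out Saturated replicate 5 to 2 higher and 3 lower, and leaving out Saturated replicate 7 to 1 higher and 9 lower. Krt23 and Tm7sf2 were called in all 23 of these fits, with an adjusted p of at most 0.00644 and 0.0447. Idi1 was called in 20, Cyp51 in 21 and Sqle in 15 of them.

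The genes of cholesterol synthesis had lower signals in both unsaturated diets. All 17 measured genes of the 20 on the list had a lower mean over 24 livers, with a median log2 difference of −0.67 (−0.73 in Trans and −0.57 in Cis), and 17 of 17 were lower at an unadjusted p under 0.05, where 693 of all 18820 genes were. None was called over 24 livers, with adjusted p between 0.206 and 0.711. Over 23 livers the median was −0.84 (−0.91 in Trans and −0.75 in Cis), against 0.01 over all genes. Of the 17 genes 8 fell by the test, where 10 of all 18820 genes did. The list was chosen with results of these livers known, so its count describes these data and is no independent evidence of its direction.

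The enzymes can be followed along the pathway, whose first stage makes the isoprene units. Hmgcs1, which makes HMG-CoA, had a signal of 303 to 1102 in the unsaturated livers (median 586), 672 to 1591 in the 7 other Saturated livers (median 1114) and 378 in Saturated replicate 2. Its log2 difference was −0.84 ± 0.19 over 23 livers (adjusted p = 0.132) and −0.66 ± 0.22 over 24 (adjusted p = 0.487), so it did not pass the test. Pmvk, phosphomevalonate kinase, had a signal of 85.4 to 208 in the unsaturated livers (median 149) and 185 to 439 in the 7 Saturated livers (median 308). It fell by 0.96 on the log2 scale (standard error 0.16, adjusted p = 0.0173) over 23 livers, against −0.77 ± 0.19 over 24 (adjusted p = 0.25), and 12 of 16 unsaturated livers were below the lowest of the 7 Saturated livers.

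Idi1, which turns isopentenyl diphosphate into its isomer, had a signal of 84.3 to 441 in the unsaturated livers (median 228), 427 to 771 in the 7 Saturated livers (median 470) and 193 in Saturated replicate 2. The groups overlapped in 1 unsaturated liver, Cis replicate 1. Idi1 fell by 1.17 on the log2 scale (standard error 0.20, adjusted p = 0.0209) over 23 livers, a 2.25-fold lower level, while over 24 livers the difference was −0.995 ± 0.22 (adjusted p = 0.206). A second probe set listed for Idi1 gave −1.22 (adjusted p = 0.0332) and followed the first across the 24 livers with a correlation of 0.995, so it is not a separate measurement. Mvk, Mvd and Fdps, the other enzymes of this stage measured, had log2 differences of −0.39, −1.001 and −0.78 over 23 livers, and none of them was called.

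The second group commits the isoprene units to sterols. Fdft1, squalene synthase, had a signal of 280 to 667 in the unsaturated livers (median 460) and 605 to 1071 in the 7 Saturated livers (median 770). It fell by 0.82 on the log2 scale over 23 livers (standard error 0.14, adjusted p = 0.0173), against −0.68 ± 0.16 over 24 (adjusted p = 0.216), and 14 of 16 unsaturated livers were below the lowest of the 7. Sqle, squalene epoxidase, had the largest difference of the list. Its signal was 29.9 to 247 in the unsaturated livers (median 106), 243 to 446 in the 7 Saturated livers (median 300) and 40.5 in Saturated replicate 2, and the groups overlapped in Cis replicate 6 alone. Sqle fell by 1.56 on the log2 scale over 23 livers (standard error 0.28, adjusted p = 0.0317), and over 24 livers its difference was −1.19 ± 0.36 (adjusted p = 0.422). Lss, lanosterol synthase, had a signal of 62.8 to 210 in the unsaturated livers (median 122) and 197 to 391 in the 7 Saturated livers (median 266), and fell by 1.07 over 23 livers (standard error 0.19, adjusted p = 0.0286). Over 24 livers its difference was −0.87 ± 0.22 (adjusted p = 0.297).

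The last group turns lanosterol into cholesterol. Cyp51, the lanosterol demethylase, had a signal of 154 to 392.2 in the unsaturated livers (median 242), 400 to 644 in the 7 Saturated livers (median 453) and 177 in Saturated replicate 2. The 16 unsaturated livers were thus all below the 7 Saturated livers, and Saturated replicate 2 lay among them. Cyp51 fell by 1.01 on the log2 scale over 23 livers (standard error 0.16, adjusted p = 0.0126), and over 24 livers the difference was −0.83 ± 0.19 (adjusted p = 0.206). Tm7sf2, a sterol reductase, had a signal of 228 to 517 in the unsaturated livers (median 320) and 437 to 680 in the 7 Saturated livers (median 560), and fell by 0.73 over 23 livers (standard error 0.11, adjusted p = 0.00943), against −0.60 ± 0.13 over 24 (adjusted p = 0.206). Msmo1, the methylsterol oxidase, had a signal of 364 to 1014 in the unsaturated livers (median 618) and 880 to 1770 in the 7 Saturated livers (median 1089), and fell by 0.91 over 23 livers (standard error 0.16, adjusted p = 0.0193), against −0.74 ± 0.19 over 24 (adjusted p = 0.285). The other 5 enzymes of this group, Nsdhl, Hsd17b7, Dhcr7, Sc5d and Ebp, had differences of −0.86, −0.62, −0.59, −0.32 and −0.17 over 23 livers. None of the 5 was called, and Nsdhl was nearest with an adjusted p of 0.0601.

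**Figure D2:**
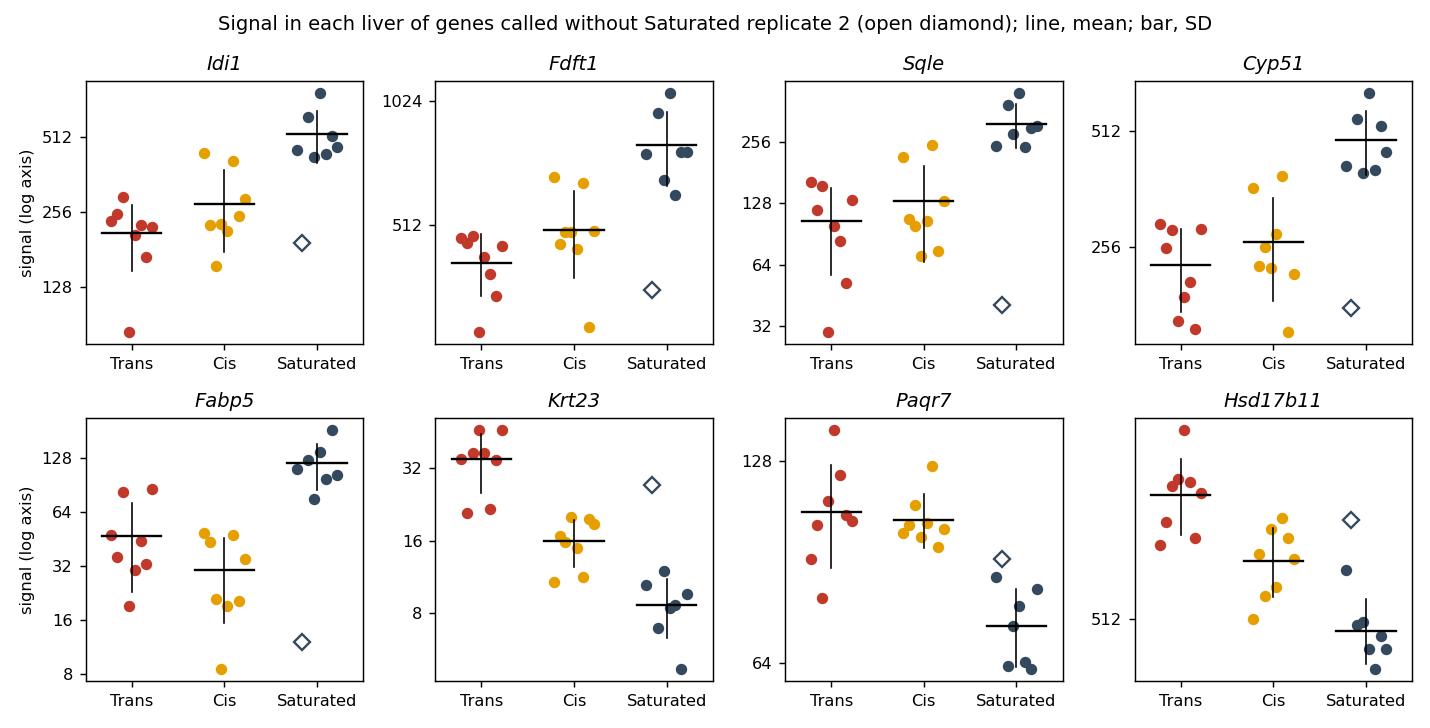
Signal of 8 called genes in each liver (vertical axes, log scale), by diet, with the mean and SD of the filled points as black lines; the open diamond is Saturated replicate 2, which is not in the mean. The 16 unsaturated livers lie below the 7 other Saturated livers for Cyp51, and Saturated replicate 2 lies within the range of the unsaturated livers in each panel; for Paqr7 its signal of 91.6 is close to the other Saturated livers, of which the highest is at 85.9.

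The 2 diets were set against each other directly, without the Saturated livers, by the difference of Trans minus Cis. Among the 17 cholesterol synthesis genes this difference ran from −0.47 for Mvd to 0.09 for Pmvk, and it was below 0 in 13. Its 95% interval included 0 for all 17, and it spanned −1.02 to 0.27 for Sqle, −0.85 to 0.08 for Idi1 and −0.43 to 0.44 for Lss. Differences between Trans and Cis up to those bounds could not be told from 0, and all 17 genes met the rule for moving alike over 23 livers (difference in 1 direction, ratio of at least 0.5). Trans minus Saturated and Cis minus Saturated share the same Saturated livers, so that likeness is not independent in the 2 diets.

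**Figure D3:**
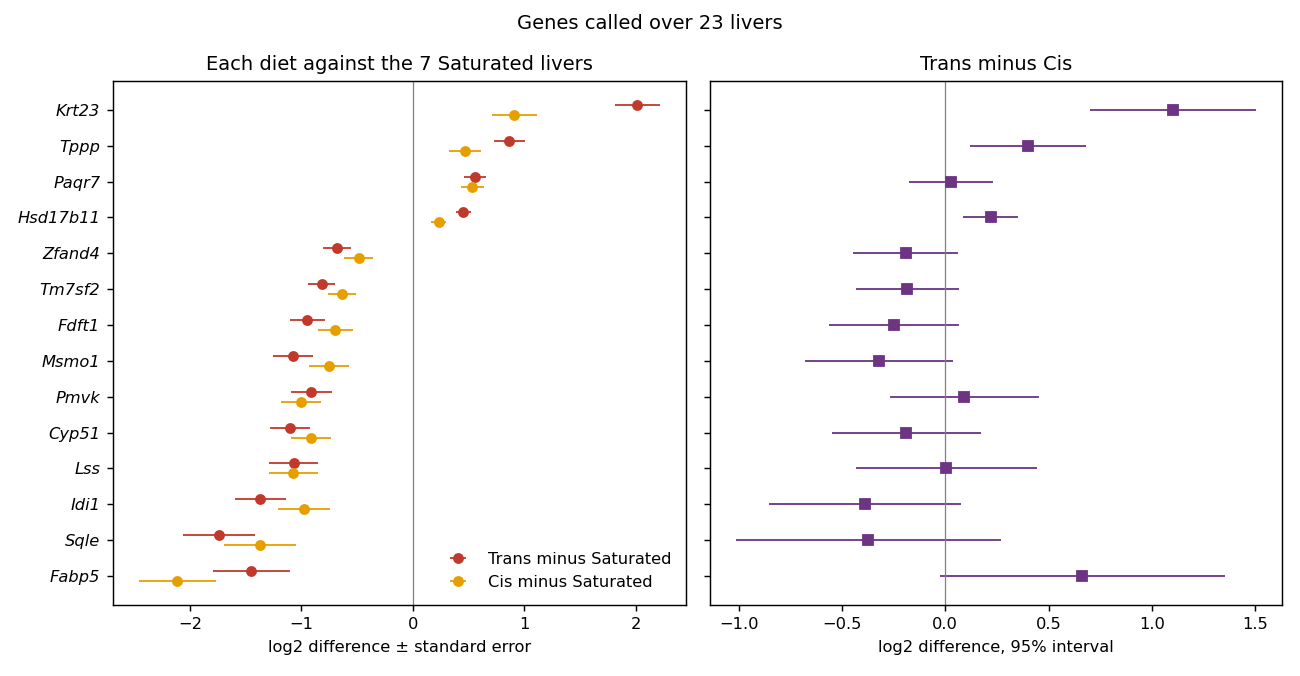
Log2 differences of the 14 genes called over 23 livers. The left panel gives Trans minus Saturated (red) and Cis minus Saturated (orange) with standard errors, and the right panel Trans minus Cis with its 95% interval; the interval lies above 0 for Krt23, Tppp and Hsd17b11 and includes 0 for the other 11.

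Promoters of the cholesterol synthesis genes were read for letters known to bind their regulators, since SREBP2 acts on sterol regulatory elements together with the CCAAT-binding factor NF-Y. Of the 17 genes measured, 14 have an entry in the RefSeq promoter table used here (GRCm38.p6, 250 bases before to 50 bases after a start). The stretches below run from 160 bases before the start to 50 bases after it, 5′ to 3′ on the strand of the gene, for the 5 called genes with 1 promoter entry and for Hmgcs1, which was not called and is shown as the only one of the 14 with the sterol regulatory element searched. Capitals mark CCAAT, on either strand, and, in Hmgcs1 alone, the element TCACNCCAC.
Tm7sf2 (chr19:6067801-6068010, minus strand): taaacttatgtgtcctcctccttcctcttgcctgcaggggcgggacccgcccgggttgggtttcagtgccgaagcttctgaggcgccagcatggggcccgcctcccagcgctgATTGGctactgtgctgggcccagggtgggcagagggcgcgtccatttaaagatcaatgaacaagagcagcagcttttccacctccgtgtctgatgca
Cyp51 (chr5:4104648-4104857, minus strand): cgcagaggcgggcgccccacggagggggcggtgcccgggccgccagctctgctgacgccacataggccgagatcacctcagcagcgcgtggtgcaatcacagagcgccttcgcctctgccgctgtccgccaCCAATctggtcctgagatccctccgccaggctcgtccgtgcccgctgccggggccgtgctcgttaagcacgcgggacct
Idi1 (chr13:8885446-8885655, plus strand): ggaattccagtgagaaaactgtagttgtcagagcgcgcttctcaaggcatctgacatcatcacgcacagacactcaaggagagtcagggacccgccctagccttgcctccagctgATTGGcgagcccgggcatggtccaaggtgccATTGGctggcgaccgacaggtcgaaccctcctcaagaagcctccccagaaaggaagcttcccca
Lss (chr10:76531445-76531654, plus strand): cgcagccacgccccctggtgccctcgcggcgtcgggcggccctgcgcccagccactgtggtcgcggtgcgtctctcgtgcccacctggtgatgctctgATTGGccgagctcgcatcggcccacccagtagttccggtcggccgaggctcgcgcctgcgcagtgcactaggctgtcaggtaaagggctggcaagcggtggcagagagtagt
Msmo1 (chr8:64733529-64733738, minus strand): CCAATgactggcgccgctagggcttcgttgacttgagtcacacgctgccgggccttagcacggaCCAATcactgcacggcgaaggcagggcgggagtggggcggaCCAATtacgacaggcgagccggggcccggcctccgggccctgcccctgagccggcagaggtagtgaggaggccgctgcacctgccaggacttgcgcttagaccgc
Hmgcs1 (chr13:119690191-119690400, plus strand): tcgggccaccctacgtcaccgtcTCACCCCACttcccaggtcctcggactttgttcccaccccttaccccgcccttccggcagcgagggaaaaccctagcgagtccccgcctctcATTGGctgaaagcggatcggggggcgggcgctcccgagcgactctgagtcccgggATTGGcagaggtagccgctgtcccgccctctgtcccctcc

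CCAAT, searched on both strands, was found in the promoters of 14 of the 14 genes, while 41.1% of all 27025 gene symbols in the table have a promoter with it. It stood at 47 to 43 bases before the start in Tm7sf2, at 29 to 25 in Cyp51 and at 62 to 58 in Lss. Idi1 has it at 45 to 41 and at 14 to 10 bases before the start, and Msmo1 has it 3 times within the stretch shown. At least 2 copies were present in 9 of the 14 genes and in 13.3% of all symbols. The element TCACNCCAC was found in 1 of the 14, Hmgcs1, and in 1.44% of all symbols. The E-box CACGTG was found in 3 of the 14, Sc5d, Hsd17b7 and Dhcr7, and in 8.09% of all symbols. The matches describe the sequences only, and binding was not measured.

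The genes that sense and take up sterols differed less than the genes of synthesis. Of 11 measured on the list of 14, 0 were called, and 4 were lower and 0 higher at an unadjusted p under 0.05 over 24 livers, where 3.68% of all genes were lower, with a median log2 difference of −0.12. Scap, the escort protein of the SREBPs, had a signal of 255 to 344 in the unsaturated livers (median 282) and 305 to 382 in the 8 Saturated livers (median 358). Its difference was −0.27 ± 0.06 over 24 livers (adjusted p = 0.206) and was close in Trans (−0.28) and Cis (−0.26). Srebf2, which encodes SREBP2, had a signal of 67.2 to 101 in the unsaturated livers and 67.8 to 143 in the 8 Saturated livers, with a difference of −0.25 ± 0.10 (adjusted p = 0.593). Stard4, a sterol carrier, and Tmem97, a sterol-binding membrane protein, had differences of −0.32 and −0.28. Insig2 (0.14) and Mylip (0.05), which sends the LDL receptor for degradation, lay on the other side of 0.

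Among the other genes that fell, Fabp5, a carrier of fatty acids in the cytosol, showed the largest difference. Its signal was 8.57 to 85.5 in the unsaturated livers (median 35.6), 76.1 to 184 in the 7 Saturated livers (median 111) and 12.1 in Saturated replicate 2. It fell by 1.78 on the log2 scale over 23 livers (standard error 0.30, adjusted p = 0.018), a 3.43-fold lower level, with −1.45 in Trans and −2.11 in Cis. Trans minus Cis was 0.66, with a 95% interval of −0.03 to 1.35. Over 24 livers the difference was −1.37 ± 0.39 (adjusted p = 0.379). Of the 2 further probe sets listed for Fabp5, 1 followed it with a correlation of 0.992, and the other, with a low mean of 3.28 on the log2 scale, gave −0.49 over 23 livers (adjusted p = 0.00943) and did not move alike, at −0.32 in Trans and −0.65 in Cis. Zfand4, a zinc finger protein, fell by 0.58 over 23 livers (adjusted p = 0.0454), against −0.44 over 24 (adjusted p = 0.449). Of Sytl5, a synaptotagmin-like protein, and Hmcn1, an extracellular matrix protein, a probe set other than the one of highest mean was called over 23 livers, at −1.46 and −0.43, against −1.22 and −0.40 over 24 (adjusted p = 0.25 and 0.14). The leading probe set of Hmcn1 gave 0.03 over 23 livers, so its probe sets do not give the same result, whereas that of Sytl5 gave −1.31 (adjusted p = 0.0543). A probe set listed with both Fdft1 and Ctsb fell as well, by 0.83 over 23 livers, against −0.69 over 24 (adjusted p = 0.206).

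The 4 genes that rose differ in function. Paqr7, a membrane receptor for progestins, had a signal of 80.0 to 143 in the unsaturated livers (median 103), 62.7 to 85.9 in the 7 Saturated livers (median 72.7) and 91.6 in Saturated replicate 2, and 15 of 16 unsaturated livers were above the highest of the 7. It rose by 0.54 on the log2 scale over 23 livers (standard error 0.09, adjusted p = 0.0173), with 0.56 in Trans and 0.53 in Cis, and had a difference of 0.50 ± 0.09 over 24 livers (adjusted p = 0.131). Trans minus Cis was 0.03, with an interval of −0.18 to 0.23. The genes that rose in both diets thus include 1 whose difference was nearly the same size in each.

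Krt23, a keratin of epithelial cells, rose most and unequally. Its signal was 20.9 to 46.4 in Trans (median 36.0), 10.8 to 20.1 in Cis (median 16.2) and 4.67 to 11.9 in the 7 Saturated livers (median 8.59). Trans and Cis livers did not overlap, while 2 Cis livers lay within the Saturated range. Its difference over 23 livers was 1.46 ± 0.18 (adjusted p = 0.000956), from 2.01 in Trans and 0.91 in Cis, a ratio of 0.452, so it did not move alike. Over 24 livers the difference was 1.25 ± 0.22 (adjusted p = 0.131). Trans minus Cis was 1.103 (interval 0.70 to 1.51), which did not pass the test over all probe sets (adjusted p = 0.149). Krt23 was taken as a bile duct marker. Of the 8 such markers measured, 5 were higher and 3 lower over 24 livers with a median of 0.02, Krt7 had a difference of −0.16 and Sox9 one of −0.21. The part of bile duct cells in the rise of Krt23 was not tested.

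Hsd17b11, a steroid dehydrogenase found on lipid droplets, had a signal of 513 to 795 in the unsaturated livers (median 625), 456 to 574 in the 7 Saturated livers (median 493) and 644 in Saturated replicate 2. It rose by 0.34 on the log2 scale over 23 livers (standard error 0.06, adjusted p = 0.018), against 0.29 ± 0.06 over 24 (adjusted p = 0.206), with 0.45 in Trans and 0.23 in Cis, just inside the ratio for moving alike at 0.512. Tppp, which promotes the assembly of tubulin, had a signal of 14.9 to 34.9 in the unsaturated livers (median 22.8) and 11.4 to 18.7 in the 7 Saturated livers (median 13.9). It rose by 0.66 over 23 livers (standard error 0.12, adjusted p = 0.0356), with 0.86 in Trans and 0.46 in Cis, against 0.60 ± 0.12 over 24 (adjusted p = 0.206). For both genes the 95% interval of Trans minus Cis excluded 0, at 0.09 to 0.35 and 0.12 to 0.68, but neither passed the test over all probe sets (adjusted p = 0.568 and 0.712).

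The genes nearest to a call over all 24 livers outside sterol metabolism had varied functions. None passed the test, and their values are given as differences. Mgll, monoacylglycerol lipase, had a signal of 371 to 566 in the unsaturated livers (median 506) and 327 to 429 in the 8 Saturated livers (median 358), with a difference of 0.38 ± 0.07 (adjusted p = 0.14). Of the 16 unsaturated livers, 13 were above the highest Saturated liver. Gpat3, which starts the assembly of glycerolipids, had a signal of 21.6 to 48.7 against 12.5 to 31.9 and a difference of 0.65 ± 0.14 (adjusted p = 0.206). Cidec, a protein that lets lipid droplets grow, had a signal of 37.3 to 216 (median 95.7) against 9.68 to 74.2 (median 37.3) and a difference of 1.40 ± 0.32 (adjusted p = 0.206), with 1.57 in Trans and 1.23 in Cis. For these 3 genes Saturated replicate 2 lay within the range of the other Saturated livers, and the differences over 23 livers were 0.37, 0.66 and 1.38.

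The other genes near a call with higher means were Unc5b, a netrin receptor (0.47), Chrna2, a subunit of the acetylcholine receptor (0.42), Cyp3a11, a drug-metabolizing P450 (0.38), Ces2e, a carboxylesterase (0.38), Slc22a21, a carnitine transporter (0.37), Wdr73 (0.34), Rmdn3, which tethers mitochondria to the endoplasmic reticulum (0.30), and Acaa1b, a thiolase of the peroxisome (0.29). Those with lower means outside sterol metabolism were Sgsm1 (−0.44), the transcription factors Cbfb (−0.32) and Foxp1 (−0.26), Wipf1, which acts on the actin skeleton (−0.32), and the immunoglobulin genes Ighg3 (−0.58), Igkv6-23 (−0.47) and Igkv1-135 (−0.35). A second probe set listed for Ighg3 gave 0.07 and had a correlation of −0.196 with the first, so the 2 do not give the same result. Their adjusted p over 24 livers lay between 0.206 and 0.216. In each of these 15 genes the Trans and Cis differences from Saturated met the ratio for moving alike, which the rule for naming them had required.

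Genes of fatty acid synthesis did not follow those of cholesterol synthesis closely. Of 15 measured, 12 had a lower mean over 24 livers, with a median of −0.13, but only 1 was lower and 1 higher at an unadjusted p under 0.05, and 0 were called. Over all genes 3.68% were lower and 4.01% higher at this p. Acss2, which makes acetyl-CoA from acetate, had a signal of 265 to 788 in the unsaturated livers (median 530) and 314 to 1261 in the 8 Saturated livers (median 893), with a difference of −0.52 ± 0.22 (adjusted p = 0.643). Srebf1, which encodes SREBP1, went the other way, with a signal of 209 to 694 (median 423) against 216 to 477 (median 294) and a difference of 0.43 ± 0.18 (adjusted p = 0.648). For both genes the signals of the groups overlapped. Without Saturated replicate 2, which had the lowest list mean of the Saturated livers, the median was −0.28, a shift of more than 1.5 times. Over those 23 livers 14 of the 15 genes had a lower mean. At an unadjusted p under 0.05, 3 were lower and 1 higher (3.93% and 4.47% of all genes were), and 0 were called. Among the desaturases and elongases 1 of 15 was lower at an unadjusted p under 0.05 over 24 livers, Elovl2 (−0.16 ± 0.07), and the median was −0.06.

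Genes of fatty acid oxidation had slightly higher means in both unsaturated diets, without a call. Of the auxiliary enzymes for unsaturated fatty acids, 6 of 6 measured had a higher mean over 24 livers, with medians of 0.15 in Trans and 0.14 in Cis, and 4 were higher at an unadjusted p under 0.05, where 4.01% of all genes were. Decr1, Eci1 and Hadh of this list are also on the mitochondrial list below, and Decr2 and Eci2 on the peroxisomal list. The counts of these lists are therefore not separate results. Decr1, the dienoyl-CoA reductase that handles conjugated double bonds, had a signal of 560 to 772 in the unsaturated livers (median 635) and 464 to 651 in the 8 Saturated livers (median 563), a difference of 0.21 ± 0.06 (adjusted p = 0.431). Ech1, which shifts double bonds, and Eci2, an enoyl-CoA isomerase, had differences of 0.17 and 0.14, and Hadh one of 0.13. In all 16 unsaturated livers the mean of the 6 genes was above the mean of the 7 Saturated livers, by 0.04 to 0.37 on the log2 scale, but the 7 Saturated livers ran from −0.19 to 0.19 around their own mean and overlapped with them, and Saturated replicate 2 was at 0.15.

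In the mitochondrial list 16 of 16 genes had a higher mean (median 0.12), where 52.0% of all genes did. Of the list, 7 were higher at an unadjusted p under 0.05 (4.01% of all genes were). Cpt2, which passes acyl groups from carnitine back to coenzyme A, had a signal of 332 to 467 in the unsaturated livers (median 378) and 301 to 370 in the 8 Saturated livers (median 328), a difference of 0.20 ± 0.06 (adjusted p = 0.385). Slc25a20, the carnitine carrier, and Acads, the short-chain dehydrogenase, had differences of 0.21 and 0.14. In the peroxisomal list 11 of 14 had a higher mean and 5 were higher at an unadjusted p under 0.05, Hsd17b4 (0.15) and Acox2 (0.15) among them. Abcd2, a fatty acid transporter, had a difference of −0.23 ± 0.22. Differences of this size are well below those of the cholesterol synthesis genes, and the median of the mitochondrial list was 0.13 in Trans and 0.08 in Cis.

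**Figure D4:**
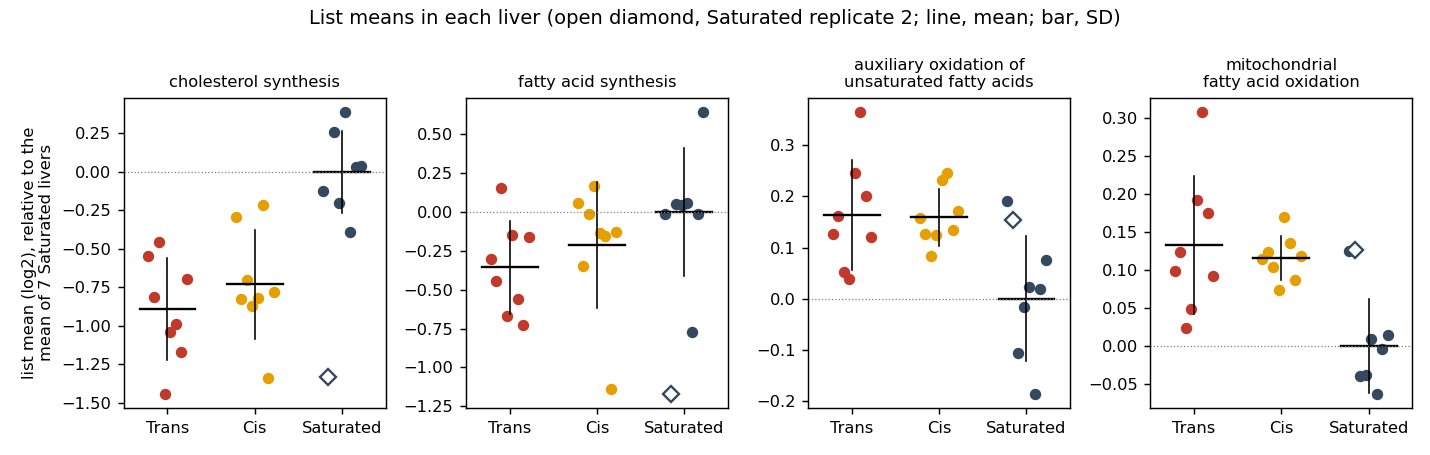
Mean of the genes of 4 lists in each liver (vertical axes, log2 scale), relative to the mean of 7 Saturated livers, with group means and SD as black lines and Saturated replicate 2 as an open diamond. For cholesterol synthesis the unsaturated livers run from −1.44 to −0.21 and the 7 Saturated livers from −0.39 to 0.39, and Saturated replicate 2 lies at −1.33; for fatty acid synthesis the unsaturated livers (−1.14 to 0.16) and the 7 Saturated livers (−0.77 to 0.64) overlap.

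Targets of PPARα as a group had higher means, with a median of 0.25 over 24 livers (0.27 in Trans and 0.25 in Cis). Of 19 measured, 17 had a higher mean (52.0% of all genes did), 7 were higher at an unadjusted p under 0.05 (4.01% of all genes were), and 0 were called. Besides Mgll and Cidec these include Vnn1, a pantetheinase, with a signal of 298 to 588 in the unsaturated livers (median 380) against 184 to 366 in the 8 Saturated livers (median 292) and a difference of 0.51 ± 0.13 (adjusted p = 0.27), and Aldh3a2, which oxidizes fatty aldehydes (0.23 ± 0.06, adjusted p = 0.242). Fgf21, a hormone of fasting (−0.51 ± 0.31), and Pdk4, which spares glucose (−0.16 ± 0.47), lay on the other side of 0 with wide errors. Among the lipid droplet genes 14 of 18 had a higher mean and 4 were higher at an unadjusted p under 0.05. Next to Cidec these were Mogat1, which makes diacylglycerol (0.81 ± 0.28), Plin4, a droplet coat protein (0.73 ± 0.28), and Fitm1, a membrane protein of droplet formation (0.28 ± 0.10).

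The largest single difference among the listed genes was that of Cyp2b9, a P450 of drug and steroid metabolism. Its signal was 163 to 1356 in Trans (median 605), 100 to 1184 in Cis (median 353) and 5.16 to 912 in the 8 Saturated livers (median 50.3), so the Saturated livers alone spanned more than the difference between groups. Of those 8, the 3 highest were at 912, 438 and, for Saturated replicate 2, 323, and the other 5 were at 50.6 or below. The log2 difference was 2.76 ± 0.78, 6.79-fold, with an adjusted p of 0.376 over 24 livers. Cyp3a25 had a difference of 0.25 ± 0.08 and Cyp1a2 one of −0.38 ± 0.11, unequal in Trans (−0.58) and Cis (−0.18). Neither was called. Both probe sets shared by 4 Cyp3a genes were called higher when only probe sets with a mean signal over 20 were tested, beside Krt23, Paqr7 and Mgll.

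No gene of the next groups was called. Collagen and fibrosis genes had a median of 0.14 over 24 livers, made of 0.32 in Trans and 0.005 in Cis, with Col1a1, the main fibrillar collagen, at 0.83 and 0.11. The difference between the diets in these medians was not tested. Smooth muscle markers likewise had medians of 0.36 in Trans and 0.06 in Cis. Pla2g6, a phospholipase, had a pooled difference of 0.32 ± 0.07 (adjusted p = 0.206) from 0.50 in Trans and 0.14 in Cis. In the bile acid list 12 of 16 genes had a lower mean and 2 were lower at an unadjusted p under 0.05, Cyp27a1, the sterol 27-hydroxylase (−0.23 ± 0.07), and Slc10a1, the bile acid importer (−0.17 ± 0.07). Among all 18820 genes 9036 had a lower mean, and 3.68% were lower at this p. Of the genes of cholesterol efflux Abca1 (0.04 ± 0.06) and Abcg1 (0.01 ± 0.12) differed little, and Abcg5 and Abcg8, the sterol exporters of the bile canaliculus, had 0.25 and 0.27. The list of apolipoproteins and VLDL assembly had 7 of 14 higher and 7 lower, with none at an unadjusted p under 0.05.

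In the list of glucose metabolism and the feeding state, 1 of 14 genes was higher and 3 were lower at an unadjusted p under 0.05. Over all genes 4.01% were higher and 3.68% lower. None of the list was called, and its medians were −0.17 in Trans and 0.04 in Cis. Ppargc1b, a coactivator related to Ppargc1a, was the higher one, with a difference of 0.30 ± 0.14 (adjusted p = 0.677). Ppargc1a, a coactivator of oxidation and glucose production, had a difference of −0.42 ± 0.12 over 24 livers (adjusted p = 0.363), Irs2, which relays insulin signals, one of −0.35 ± 0.14 and Igfbp1, a fasting-induced binding protein, one of −0.73 ± 0.34. Atf4, a factor of the integrated stress response, had a signal of 113 to 171 in the unsaturated livers (median 135), 156 to 201.1 in the 7 Saturated livers (median 178) and 116.9 in Saturated replicate 2. Its difference was −0.36 ± 0.07 over 23 livers (adjusted p = 0.0601) and −0.28 ± 0.08 over 24 (adjusted p = 0.403). Of the 14 genes of endoplasmic reticulum stress 12 had a lower mean (9036 of all 18820 genes did), with 1 at an unadjusted p under 0.05. The circadian clock, which moves with time of death, had a median of 0.16 over 24 livers (−0.01 in Trans and 0.17 in Cis). Of its 14 genes 9 had a higher mean, and 1 was at an unadjusted p under 0.05, Hlf (0.26 ± 0.09). Of the lists not named so far, acute phase proteins had a median of 0.02, phospholipid remodelling 0.01, cell cycle and DNA replication 0.03, NRF2 targets 0.06 and the interferon response −0.11, and none of their genes was called.

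Markers of the cell types in the liver were set beside these results. Of all 18820 genes, 9036 had a lower mean over 24 livers, and 3.68% were lower at an unadjusted p under 0.05. Of the 11 hepatocyte markers 10 had a lower mean, with a median of −0.06, and 1 of them was lower at an unadjusted p under 0.05, Cps1 (−0.19 ± 0.08). Of the 12 Kupffer cell markers 11 had a lower mean, with a median of −0.22 and 1 at an unadjusted p under 0.05, Timd4 (−0.37 ± 0.17). Their list mean ran from −0.68 to 0.30 in the unsaturated livers and from −0.61 to 0.52 in the 7 Saturated livers, so the groups overlapped. Of the 15 lymphocyte and neutrophil markers 14 had a lower mean (median −0.10), none had a mean signal over 20, and none was at an unadjusted p under 0.05. Endothelial and recruited macrophage markers had medians of 0.02 and 0.03, the stellate cell markers, lower in 9 of 9, one of −0.07, and adipocyte markers one of 0.10, pancreas and striated muscle markers one of 0.04 and the 2 red blood cell markers measured one of 0.10. No defining marker of a cell type was called in the pooled comparison over 23 livers other than Krt23. The part of these cell types in the differences above was not tested.

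**Figure D5:**
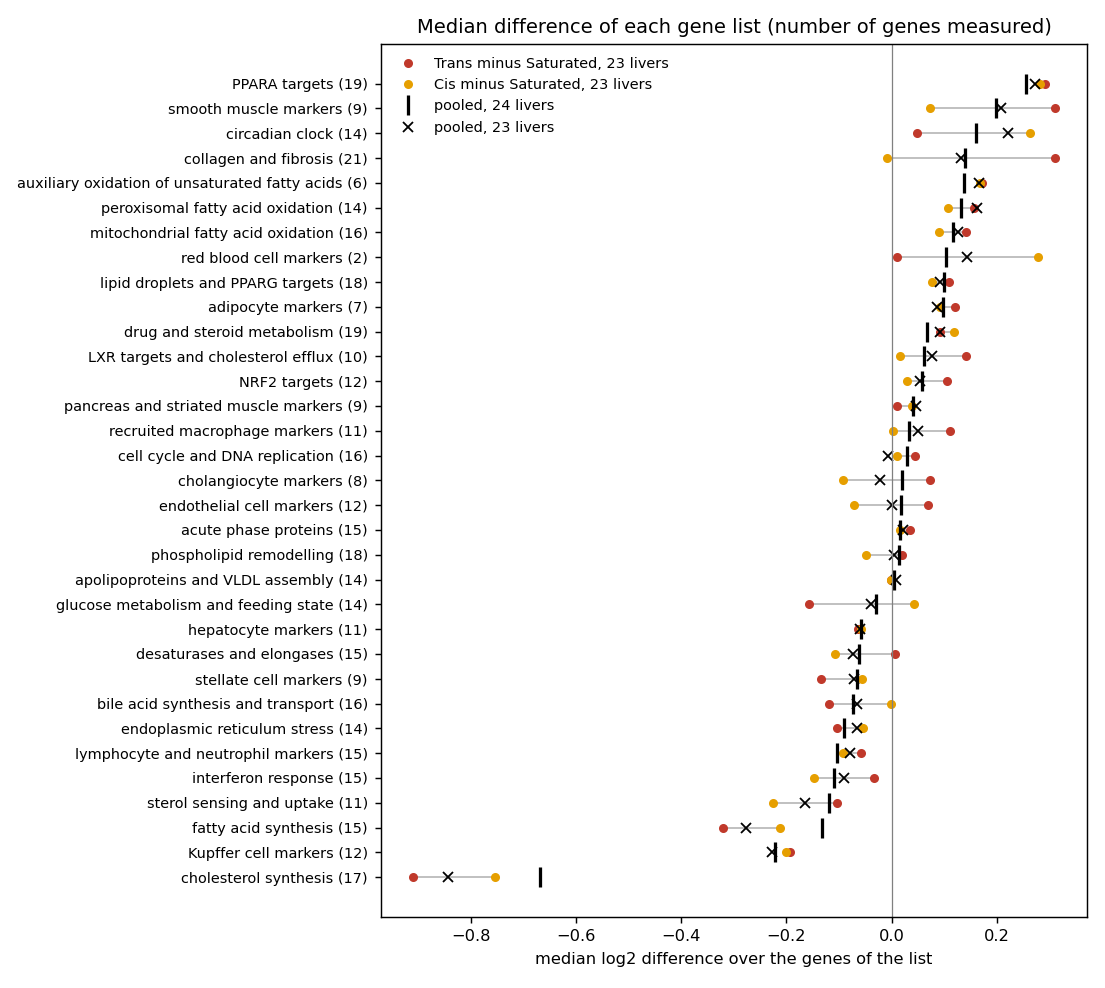
Median log2 difference of the genes of each of 33 lists (horizontal axis; number of genes measured in brackets), for Trans minus Saturated (red) and Cis minus Saturated (orange) over 23 livers and for the unsaturated diets pooled over 24 (bar) and 23 livers (cross). Cholesterol synthesis stands at −0.67 and −0.84, and the other lists lie between −0.28 and 0.27 when pooled.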

How the data were processed

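The authors deposited log2 values of 24 livers, summarized per probe set with RMA from Affymetrix Mouse Gene 1.1 ST arrays, per the labels; no background level or detection call was used here. Values ran from 0.309 to 13.5, 0 columns were left out, and the number of arrays limits the precision. Probe sets were named from the platform's annotation, in which 21218 hold 1 gene, 1881 several and 12457 none. Of the single-gene probe sets 21185 matched the RefSeq gene list, which changed 0 symbols. The 1386 genes with several probe sets are given by the one of highest mean.

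A linear model with a mean for each diet was fitted to all 35556 probe sets (limma 3.58.1 in R 4.3.3, moderated variance). The mean of Trans and Cis was contrasted with Saturated, and p-values were adjusted by Benjamini-Hochberg over all probe sets, over 24 livers and over 23 without Saturated replicate 2, with 21 and 20 residual degrees of freedom. The scripts were tested on simulated data. Replicates are livers of separate samples in the labels. Promoters were searched with Python 3.11.15.

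Named genes were those that moved alike, at most 12 a direction over 24 livers (called, or else of smallest p) and 8 over 23, up to 4 genes of smallest p and 2 against the median in each list, called genes that did not move alike, and genes the study names for liver. Zfand4, Sytl5 and Hmcn1, and genes of the cholesterol synthesis list beyond the rule, were added after their values were seen. The members and the 33 lists were chosen with earlier results of these data known. Alternatives were a 2-group fit, trend and robust moderation, a mean signal over 20, renewed quantile normalization, median centring, array weights, the replicate number as a block, a fold over 1.5, no moderation, other definitions of moving alike and each liver left out. Those over 23 livers were chosen after seeing the data.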

Additional observations from a re-analysis of the deposited data

Results flagged for a closer look

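In 33 probe sets of named genes, a second one of Fabp5 among them, and in 4 list means, each diet group was searched for a liver apart from the other 7. The measure was the gap to its nearest neighbour as a share of the range of the group on the log2 scale. Of 111 groups 12 held such a liver, where chance gives about 1 in 20 groups, and groups of related genes share the same livers. The 33 probe sets include those of genes named because they were called without Saturated replicate 2. That choice favours a gap at this liver, so the chance rate does not hold for them. Saturated replicate 2 was the lowest Saturated liver, and apart, for Sqle (share 0.7462), Fabp5 (0.6757), Cyp51 (0.6308), Idi1 (0.5724), Lss (0.5489) and the mean of the cholesterol synthesis list (0.5493). Trans replicate 4, whose array had the lowest correlation with the others, was the lowest Trans liver for Idi1 (0.5556). Cis replicate 7 was the lowest Cis liver for the mean of the fatty acid synthesis list (0.607). The other livers apart were Saturated replicate 6, lowest for Rmdn3 (0.5266), Cis replicate 3, highest for Wipf1 (0.5637), and Trans replicate 3 (0.571) and Cis replicate 8 (0.5348), both lowest in their group for the immunoglobulin gene Igkv6-23. The cause was not tested. Of the 33 probe sets 0 differed between Trans and Cis by the test over all probe sets.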

How the results depend on the processing

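Over 24 livers the count of 0 calls became 5 higher (4 alike) among the 13020 probe sets with a mean signal over 20, and 2 higher (2 alike), Gpat3 and Cidec, with the replicate block. Leaving out each liver gave 0 to 4 higher, 0 to 16 lower and 0 to 18 alike. Alike by a Tukey test without adjustment were 256. The other alternatives kept 0 calls. Over 23 livers the 4 higher calls became 2 with 2 groups, 2 with a fold over 1.5 and 13 with a mean signal over 20; the 16 lower calls became 26 with that filter, 10 with the replicate block and 10 without moderation; the 18 alike became 37 with the filter, 0 when both diets had to be called on their own, and by the Tukey test 340 unadjusted and 0 after adjustment. Leaving out a further liver gave 1 to 9 higher, 3 to 23 lower and 3 to 24 alike, lowest without Saturated replicates 3 and 5. The cause was not tested, beside the smaller number of tests under the signal filter. Equal replicate numbers did not pair the livers: r of deviations from the group mean was −0.0682 to 0.0883 over 24 pairs, and 4 of 24 livers correlated best with their own number. Of 323 values for 33 probe sets of named genes over 24 livers, 304 kept direction and stayed without a call, 19 gained the call and 0 turned. None of them was called over 24 livers, so no call could be lost. They had been picked for a small p or for calls over 23 livers, which favours a kept direction. The list medians, over 27 alternatives each, ran from −0.84 to −0.57 for cholesterol synthesis, −0.28 to −0.007 for fatty acid synthesis, 0.09 to 0.14 for mitochondrial oxidation and 0.21 to 0.31 for PPARα targets.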

Other observations

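Immunoglobulin genes, a group chosen after 3 of them stood among the genes nearest to a call, had lower means in both unsaturated diets. Of 18 measured, 16 were lower over 24 livers, with a median log2 difference of −0.25 (−0.27 in Trans and −0.19 in Cis). At an unadjusted p under 0.05, 8 were lower (44.4%, where 3.68% of all genes were) and 0 higher, and 0 were called. These 8 include the 3 genes that led to the choice of the group. None had a mean signal over 20.

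Saturated replicate 2 stood apart from the other 7 Saturated livers in its number of low genes, not of high ones. It was more than 2-fold below the mean of the others in 62 genes and above it in 27, where each other Saturated liver, set against the rest in the same way, was below in 15 to 49 and above in 17 to 55. Only its count below thus lay outside the range of the others. Genes named above, such as Fabp5, Sqle and Lss, are among the 62. Fasn, fatty acid synthase, was at a signal of 327 in it, against 813 to 2477 in the other Saturated livers and 364 to 2169 in the unsaturated livers. For Fasn it was thus the lowest of all livers, outside the range of either side.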
